A study of Rattus norvegicus with 10 samples.

Results

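Of 31042 probe sets measured in the hippocampus of 10 young rats, 16 fell onto 2 separate levels. At each of them some rats shared a high value, the other rats shared a low value, and a wide gap lay between them. The 16 were chosen by the array values themselves. The 10 values of each probe set were sorted, and a probe set was kept when the widest gap between neighbouring values was at least 0.5 log2 units and at least 0.5 of its whole range, when at least 2 rats lay on each side of the gap, and when the absolute Pearson correlation with the probe set of Ttr was under 0.8. Ttr encodes transthyretin, the main secreted protein of the choroid plexus, and the limit removes probe sets whose values closely followed those of Ttr over the rats. The diet of the rats played no part in the choice. The levels and gaps below therefore describe the selection and carry no test, whereas the comparison of the diets, the other probe sets of the same genes and the neighbouring genes were not used for it.

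The samples were hippocampi of male Wistar rats labeled as 4 weeks old, with 1 Affymetrix Rat Genome array for each rat. The P-group (5 rats, P1 to P5) was fed powdered chow for 8 days, and the C-group (5 rats, C1 to C5) was fed solid chow for the same time, after both had taken powdered feed during acclimatization. The study used the powdered diet to reduce chewing, and the array experiment asked which hippocampal genes differed with it. The hippocampi were dissected by hand, so that small amounts of adjoining tissue could enter a sample, and in such bulk tissue fewer cells of a type and less RNA per cell cannot be told apart.

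A probe set is a group of short probes that together read one stretch of a transcript, often near its end, and several probe sets of one gene can read different transcripts of it. The deposited values are log2 expression values from a factor model, and this model returns a nearly flat line for a probe set in which the probes did not vary together. Only 2904 of the 31042 probe sets varied, with a standard deviation (SD) over 0.01, and all 16 were among them. The array medians were 7.0 to 7.02 in the P-group and 7.0 to 7.02 in the C-group. All 8 genes of a list of hippocampal neuron markers were measured, with mean log2 values of 8.49 to 12.20 at their brightest probe sets, among them 9.54 for Prox1, a transcription factor of dentate granule cells, and 10.52 for Neurod6, a transcription factor of pyramidal neurons.

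Separate levels shared by several rats were rare. A gap of at least 0.5 log2 units was found in 558 probe sets and took at least 0.5 of the range in 448 of them, but in 429 of these 448 a single rat stood apart from the other 9. That left 19, of which the Ttr limit removed 3. These were Sostdc1, which encodes an inhibitor of BMP and Wnt signaling, Slc13a4, which encodes a sulfate transporter, and Abi1, a regulator of actin assembly, with correlations to Ttr of 0.93, 0.84 and 0.80. Of the 16 that remained, 10 carried 1 gene symbol each and named 10 genes, namely Lysmd4, Creg2, Slc35d3, Glycam1, Tshz2, Rnf6, Retsat, Ptprj, Pnma8b and Ogn. The other 6 had no symbol in the annotation used and are given by their probe set names.

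The gaps ran from 0.53 to 1.25 log2 units, with a median of 0.68, and took 0.51 to 0.77 of the range. The widest gaps were those of the unnamed 1394620_at (1.25), Creg2 (1.23), Slc35d3 (1.20) and Lysmd4 (1.13). Relative to the range, the clearest gaps were those of the unnamed 1392860_at (0.77), Slc35d3 (0.76) and Lysmd4 (0.75). Just inside the limit on the gap lay 1380400_at (0.53), Ogn (0.55) and Pnma8b (0.55). Just outside it lay Ppib, a folding enzyme of the endoplasmic reticulum (0.49), the unnamed 1390722_at (0.49) and Efr3a, a scaffold of lipid kinases at the plasma membrane (0.45). Just inside the limit on the share of the range were 1385031_at (0.51), 1392392_at (0.53) and 1380400_at (0.53), and just outside it 1370371_a_at (0.50, several symbols), Mx1, an interferon-induced antiviral GTPase (0.47), and 1388071_x_at (0.47). The members closest to the Ttr limit were Ogn, Glycam1 and Slc35d3, with correlations of 0.74, 0.70 and 0.67.

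**Figure D1:**
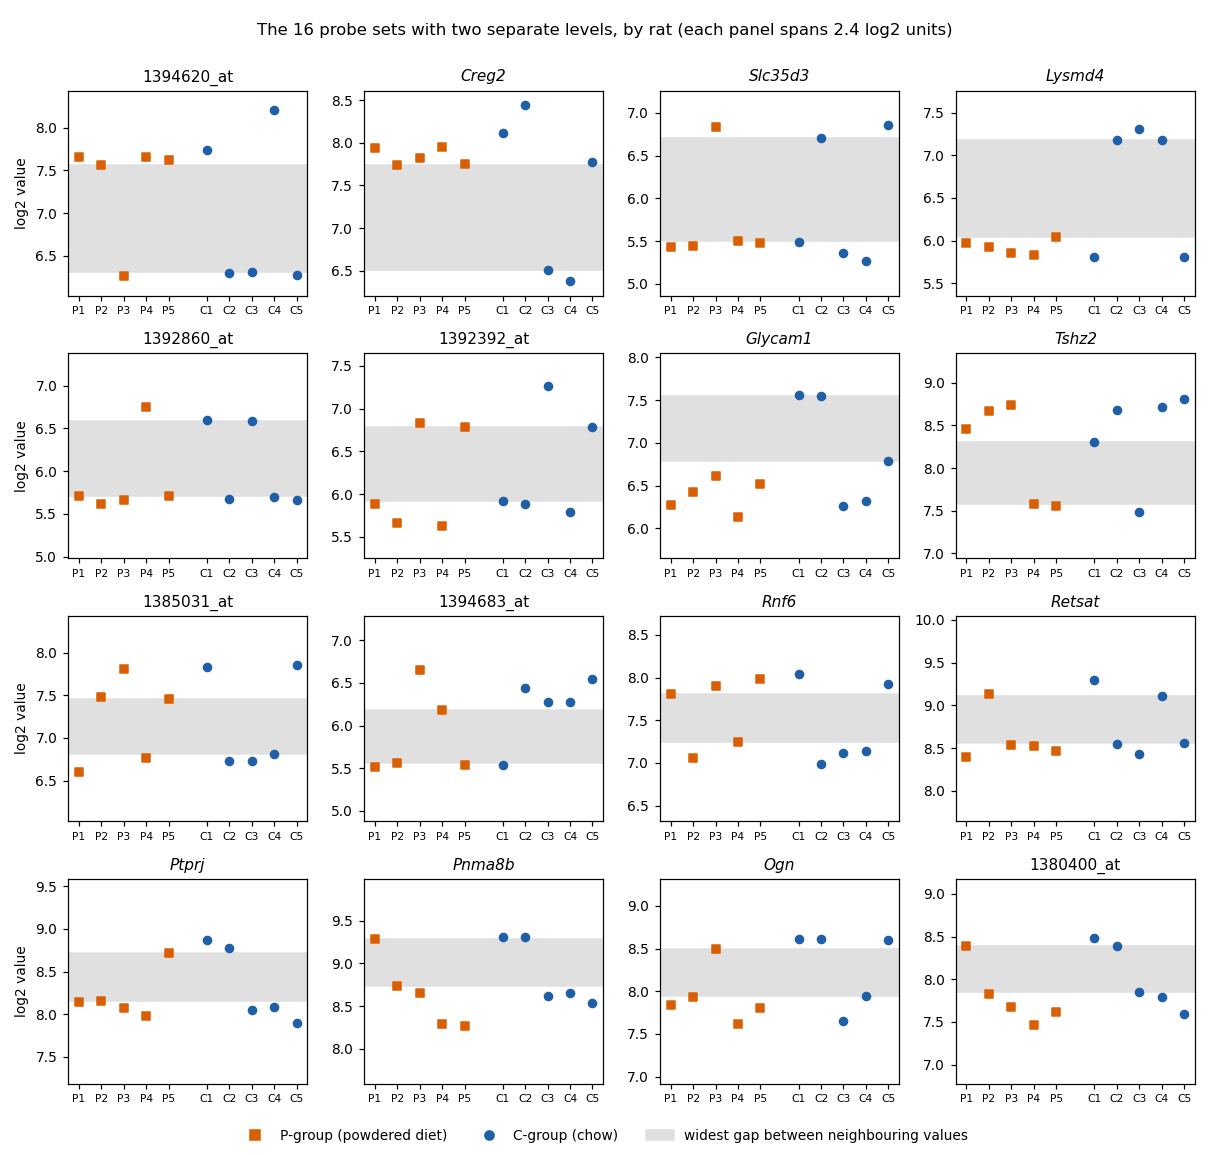
Log2 value of each of the 16 probe sets (vertical axes, each panel spanning the same number of log2 units) in the rats of the P-group (orange squares, left) and of the C-group (blue circles, right), in the order of the gap. The grey band is the widest gap between neighbouring values. For Lysmd4 the 3 high values are those of C2, C3 and C4, and for 13 of the 16 probe sets both levels occurred in both diets.

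Lysmd4 encodes a membrane protein with a LysM domain, a fold that binds sugar polymers of cell walls in bacteria and plants and whose role in mammals is little known. At 1372060_at it was 5.97, 5.93, 5.85, 5.83 and 6.05 in P1 to P5, and 5.81, 7.18, 7.31, 7.17 and 5.81 in C1 to C5. All P-group rats and C1 and C5 thus lay within 0.24 log2 units of each other on the lower level, and C2, C3 and C4 lay within 0.13 of each other on the upper one. This was the only gene of the 16 probe sets besides Glycam1 whose upper level held rats of the C-group alone.

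The gene has 3 further probe sets on the array, which the selection did not use. At 1384166_a_at the same 3 rats stood apart, but in the opposite direction. The values were 8.16, 8.20, 8.27, 8.41 and 8.22 in P1 to P5, and 8.42, 7.81, 7.92, 7.93 and 8.25 in C1 to C5. C2, C3 and C4 were the 3 lowest of the 10 rats, with their highest value 0.22 log2 units under the lowest of the other rats. The 2 remaining probe sets, 1384167_at and 1385777_at, stayed at 7.94 and 6.69 in every rat, with SDs of 0.00022 and 0.00023. The suffix a in a probe set name is given by the manufacturer where the probes match several transcripts of one gene. The rats with more signal at the chosen probe set of Lysmd4 therefore had less at a further probe set annotated to the gene. Which transcripts the probe sets read, and whether they read different stretches of Lysmd4, was not tested. Of the other LysM genes, Lysmd1, Lysmd2 and Lysmd3 were measured and had no variable probe set.

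**Figure D2:**
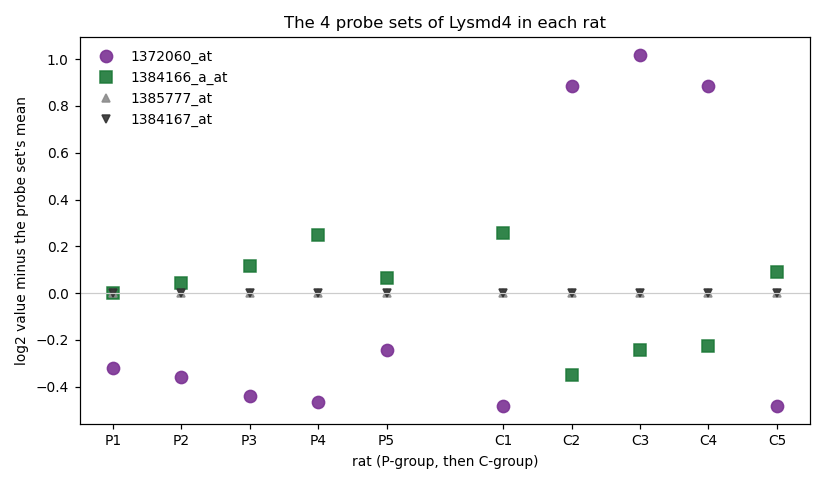
The 4 probe sets of Lysmd4 in each rat, as the log2 value minus the mean of the probe set over the 10 rats (vertical axis), with the P-group on the left and the C-group on the right. C2, C3 and C4 are highest at 1372060_at (purple circles) and lowest at 1384166_a_at (green squares), and the other probe sets (triangles) lie on the zero line.

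Few other probe sets set C2, C3 and C4 apart. Of the other 2903 variable probe sets, 15 (0.517%) had all values of these 3 rats above or all below those of the other 7, with 6 in the direction of 1372060_at and 9 in the opposite one. The widest separation among them was that of 1384166_a_at itself. The next was 1379453_a_at, which has no symbol, with 7.14, 7.31, 7.13, 7.27 and 7.21 in P1 to P5 and 7.43, 6.83, 6.78, 6.78 and 7.02 in C1 to C5, so that C2, C3 and C4 were again lowest. Chrna5, a subunit of nicotinic acetylcholine receptors, followed in the direction of 1372060_at, with 6.83, 6.72, 6.84, 6.72 and 6.0 in P1 to P5 and 6.69, 7.0, 7.10, 7.27 and 6.76 in C1 to C5. Neurod6 and Dlx1, a transcription factor of interneurons, were lowest in the 3 rats by margins of 0.09 and 0.05. Along the genome, Mef2a lies next to Lysmd4 in the annotation and Synm lies 5 genes away, and none of their 3 variable probe sets separated the 3 rats.

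Ogn encodes osteoglycin, a small proteoglycan of the extracellular matrix that is known from fibroblasts and the meninges. At 1376749_at it was 7.84, 7.93, 8.49, 7.62 and 7.81 in P1 to P5, and 8.61, 8.62, 7.66, 7.94 and 8.60 in C1 to C5, so that P3, C1, C2 and C5 formed the upper level. All of the 3 further probe sets of Ogn separated the same 4 rats from the other 6 in the same direction. At 1383263_at the upper rats had 8.01 to 8.43 and the others 7.17 to 7.57, at 1385248_a_at 7.08 to 7.56 and 6.24 to 6.55, and at 1390450_a_at 6.66 to 7.15 and 6.13 to 6.46. Ecm2, a gene of another extracellular matrix protein that lies 4 genes from Ogn, had its 4 highest values in the same rats, with 6.77 in P3 and 7.43, 6.73 and 7.05 in C1, C2 and C5, against 6.30 to 6.55 in the others.

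The upper rats of Ogn were also those with the highest means of meningeal and of choroid plexus markers. The means of pineal and of thalamus markers did not separate these rats. In P2, a lower rat of Ogn, these 2 means were 8.75 and 8.05. The mean of 6 variable meningeal markers was 8.86 to 8.95 in these 4 rats and 8.09 to 8.60 in the other 6, and 4 of the 6 genes separated them one by one. The mean of 9 variable choroid plexus markers was 8.77 to 9.41 in the upper rats and 6.59 to 8.09 in the others, with 8 of the 9 genes separating them. Ttr, whose correlation the selection limited, is among these 9 genes, so this list is not independent of the choice. In all, 232 of the other variable probe sets (7.99%) separated these rats, 218 of them in the direction of Ogn, and among those with a symbol the widest were Mfrp, a membrane protein known from the retina and ciliary body (1.11), and the excluded Slc13a4 and Sostdc1 (1.04 and 1.01). Ttr was 13.58 in P3 and 13.59, 13.49 and 13.60 in C1, C2 and C5, but also 12.99 in P5, where Ogn was low. By diet, the meningeal mean ranged from 8.09 to 8.93 in the P-group and from 8.42 to 8.95 in the C-group, and the choroid plexus mean from 6.59 to 8.95 in the P-group and from 6.83 to 9.41 in the C-group. The part of these tissues in the levels of Ogn was not tested.

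Pnma8b, a gene of the paraneoplastic Ma antigen family that derives from a retrotransposon, shared its separation with one other probe set of the 16. At 1385491_at it was 9.28, 8.73, 8.65, 8.29 and 8.27 in P1 to P5, and 9.31, 9.31, 8.62, 8.65 and 8.53 in C1 to C5. The unnamed 1380400_at was 8.39, 7.83, 7.67, 7.47 and 7.61 in P1 to P5, and 8.48, 8.38, 7.85, 7.79 and 7.60 in C1 to C5. P1, C1 and C2 were on the upper level of both. The second probe set of Pnma8b, 1391117_at, also had its 3 highest values in these rats, at 8.77, 8.90 and 8.67, against 8.09 to 8.46 in the others.

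**Figure D3:**
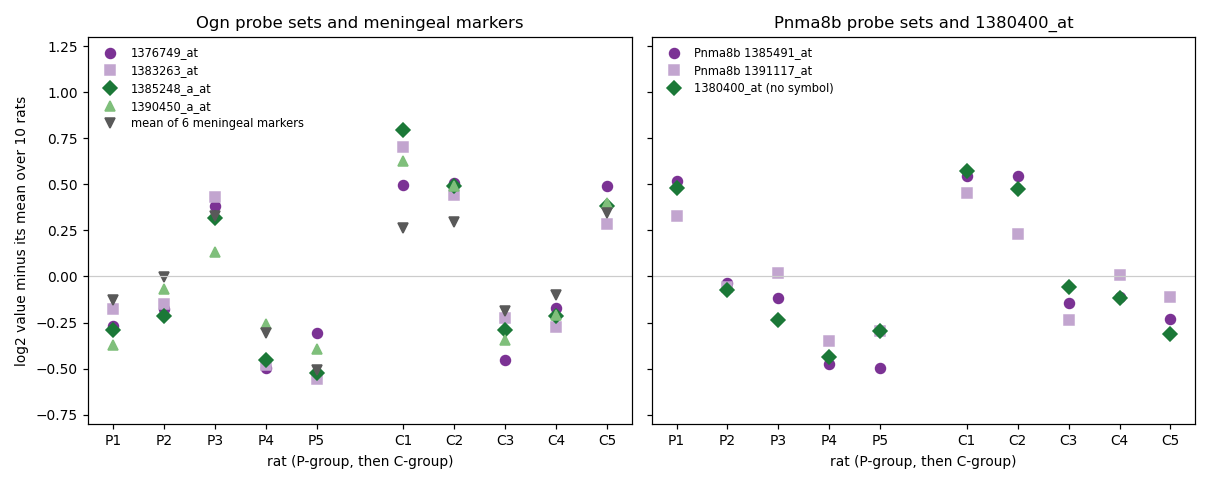
Left, the 4 probe sets of Ogn and the mean of 6 meningeal markers, and right, the 2 probe sets of Pnma8b and 1380400_at, in each rat as the log2 value minus its mean over the 10 rats (vertical axis), with the P-group before the C-group. All Ogn probe sets are high in P3, C1, C2 and C5, and all 3 probe sets on the right are high in P1, C1 and C2.

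Among the divisions that the 16 probe sets followed, that of P1, C1 and C2 was the most widely shared over the variable probe sets, and other divisions were not counted. Of the other 2903 variable probe sets, 891 (30.7%) separated these 3 rats from the other 7, against 0.517% for the rats of Lysmd4, 5.86% for the 3 low rats of Tshz2 and 1.07% to 1.89% for the other divisions into 3 and 7. Of the 891, 594 ran in the direction of Pnma8b and 297 in the opposite one. The count takes any margin, and only 91 of the 891 separated the rats by at least 0.25 log2 units. Besides 1380400_at, the widest were Nr2f2, a nuclear receptor, by 0.70 log2 units, the unnamed 1381026_at by 0.66 and Kif1a, a motor protein of axonal transport, by 0.52. The mean of 4 variable astrocyte markers was 9.92 to 10.13 in P1, C1 and C2 and 9.53 to 9.82 in the others, and 2 of the 4 genes separated the rats. The mean of 5 variable oligodendrocyte markers ran the other way, with 10.73 to 10.84 in P1, C1 and C2 and 10.97 to 11.14 in the others, and 3 of the 5 genes separated the rats. Of the 8 hippocampal neuron markers, 4 were lowest and 1 was highest in P1, C1 and C2, and their mean overlapped, with 9.21 to 9.40 in these rats and 9.32 to 9.54 in the others. The part of these cell types was not tested.

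Beyond this pair, no separation was common to 2 of the 16 probe sets. They followed 15 different divisions of the rats, and 14 of the 16 stood alone with theirs. C1 and C2 lay on the upper level most often, in 12 and 10 of the 16, and P4 and C3 least often, in 4 each. The upper level held 3 rats in 7 of the probe sets, and between 2 and 8 rats over all. Outside the 16, C1 stood apart alone at some variable probe sets, in either direction. Arf1 was 8.53 in C1, against 10.35 to 10.84 in the others, and Rpl6 was 11.70, against 10.98 to 11.17. How often each rat stood apart alone was not counted. The part of this in the shares of divisions that hold C1 was not tested.

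**Figure D4:**
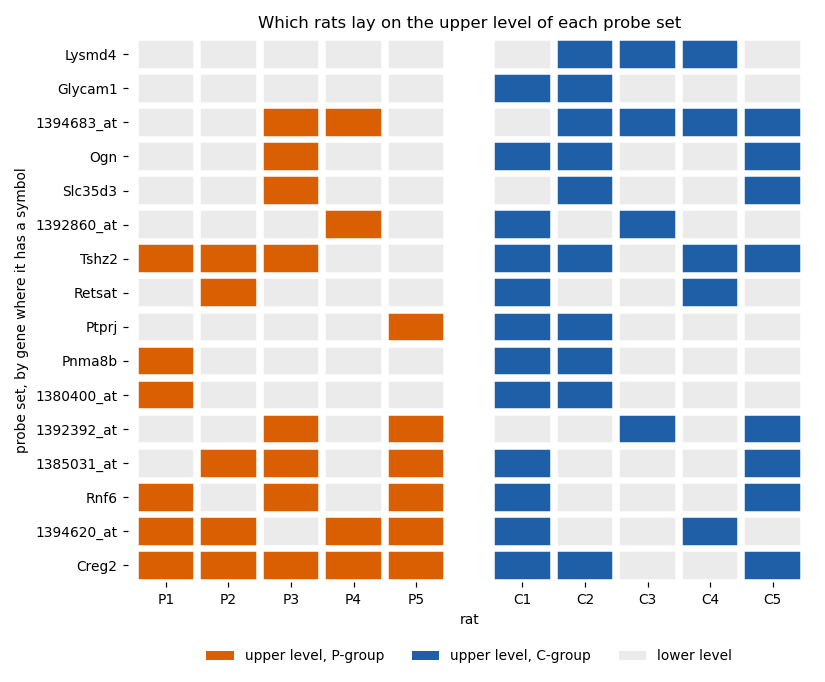
Rats (columns, P-group left and C-group right) that lay on the upper level of each of the 16 probe sets (rows), in orange for the P-group, blue for the C-group and grey for the lower level. Rows are ordered from those with more upper rats in the C-group at the top to those with more in the P-group at the bottom, and only Pnma8b and 1380400_at have the same pattern.

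Slc35d3 encodes a transporter of the nucleotide sugar family, known in mice from platelet granules and from dopamine receptor traffic in the striatum. It was 5.44, 5.45, 6.83, 5.50 and 5.48 in P1 to P5, and 5.48, 6.71, 5.36, 5.27 and 6.86 in C1 to C5. The upper level held P3, C2 and C5, which were also 3 of the 4 upper rats of Ogn, whereas C1 was low. The same 3 rats were highest in 33 and lowest in 12 of the other variable probe sets (1.55%). The widest of these was Cntn3, a cell adhesion molecule of neurons, by 0.29, so that none approached the gap of 1.20 of Slc35d3. The mean of the meningeal markers was 8.89 to 8.95 in P3, C2 and C5 and 8.09 to 8.86 in the others, with 2 of 6 genes separating the rats. The only variable gene of a list of blood markers was also highest in these 3, at 12.39 to 12.42, against 12.05 to 12.38. The part of the meninges and of blood was not tested.

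Creg2, a secreted glycoprotein of the brain, was low in a pair of rats. It was 7.94, 7.74, 7.82, 7.95 and 7.75 in P1 to P5, and 8.11, 8.44, 6.51, 6.38 and 7.77 in C1 to C5. C3 and C4, the low rats, were among the 3 upper rats of Lysmd4. Of the other variable probe sets, 260 (8.96%) separated C3 and C4 from the rest, in which Htr2c, a serotonin receptor, had the widest separation (0.62). Map4k4, a protein kinase whose gene lies 2 genes from Creg2, was lowest in the same rats, at 7.49 and 7.58, against 7.61 to 8.02 in the other 8. The mean of 8 hippocampal neuron markers was 9.21 to 9.44 in the 8 upper rats and 9.45 to 9.54 in C3 and C4, with 2 genes separating the rats this way and 1 the other way, and the part of these neurons was not tested.

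Glycam1, a mucin that binds L-selectin on venules of lymph nodes and is abundant in milk, was 6.28, 6.42, 6.61, 6.13 and 6.52 in P1 to P5, and 7.56, 7.54, 6.26, 6.32 and 6.79 in C1 to C5. C1 and C2 made up its upper level. These 2 rats were both highest or both lowest in 741 of the other variable probe sets (25.5%), with Cd3e, a chain of the T cell receptor complex, lowest in them by 0.54 and F5, coagulation factor V, highest by 0.52. The shares of Glycam1 and Creg2 are for a pair of rats, which needs fewer values in order than a set of 3, and are comparable with each other but not with the shares of larger sets. The mean of the hippocampal neuron markers was 9.21 to 9.25 in C1 and C2 and 9.32 to 9.54 in the others, with 2 of 8 genes separating the rats this way and 1 the other way. Of the 9 variable immediate early genes 4 were lowest in C1 and C2, and of 8 variable ribosomal protein genes 3 were highest, while the means of both lists overlapped. The part of these genes was not tested.

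Ptprj, a receptor tyrosine phosphatase, was 8.14, 8.16, 8.07, 7.98 and 8.71 in P1 to P5, and 8.87, 8.77, 8.05, 8.09 and 7.90 in C1 to C5. Its second probe set, 1382094_at, was constant at 9.01 (SD 0.00039). P5, C1 and C2 had high Ptprj, and 55 of the other 2903 variable probe sets (1.89%) separated them. Several immediate early genes, which neurons switch on with activity, were low in these rats. Of 20 measured genes of that list, 9 varied. The mean of 9 variable immediate early genes was 8.19 to 8.42 in these 3 rats and 8.51 to 8.69 in the others, and 5 of the 9 were lowest in all 3. Egr1, a zinc finger transcription factor, and Arc, a regulator of AMPA receptor traffic at synapses, were below the other rats by at least 0.30 and 0.16 log2 units. No member of the list ran the other way, and the relation was seen after the values were known.

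Tshz2, a zinc finger homeobox transcription factor, was low in 3 rats, with 8.46, 8.67, 8.74, 7.58 and 7.55 in P1 to P5, and 8.30, 8.68, 7.48, 8.71 and 8.80 in C1 to C5. The low rats were P4, P5 and C3, and 170 of the other variable probe sets (5.86%) separated them. Of the 3 with the widest separation, 2 belonged to Arpp21, a regulated phosphoprotein of neurons, at 0.40 and 0.37. The meningeal mean was 8.47 to 8.95 in the 7 upper rats and 8.09 to 8.42 in P4, P5 and C3, and 4 of its 6 genes separated them. The part of the meninges was not tested.

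Retsat encodes retinol saturase, an enzyme of vitamin A metabolism. It was 8.39, 9.13, 8.54, 8.52 and 8.47 in P1 to P5, and 9.30, 8.55, 8.44, 9.11 and 8.56 in C1 to C5. P2, C1 and C4 were high, and 31 other variable probe sets (1.07%) separated them, by at most 0.24. Rnf6, a RING finger ubiquitin ligase, divided the rats into 5 and 5. It was 7.81, 7.06, 7.90, 7.25 and 7.98 in P1 to P5, and 8.05, 6.99, 7.11, 7.14 and 7.93 in C1 to C5. The upper rats P1, P3, P5, C1 and C5 came from both diets, and 17 other variable probe sets (0.586%) separated them, by at most 0.13.

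Among the unnamed probe sets, 1394620_at had the widest gap of all. It was 7.65, 7.57, 6.27, 7.65 and 7.63 in P1 to P5, and 7.74, 6.30, 6.32, 8.20 and 6.27 in C1 to C5, so that P3, C2, C3 and C5 were low. The blood marker was 12.05 to 12.35 in the upper rats and 12.38 to 12.42 in these 4, and its part was not tested. The clearest gap relative to the range was that of 1392860_at, with 5.71, 5.61, 5.66, 6.75 and 5.72 in P1 to P5, and 6.59, 5.68, 6.59, 5.69 and 5.67 in C1 to C5. Its upper rats P4, C1 and C3 are a set that no other of the 16 had, and 41 variable probe sets (1.41%) separated them.

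The other unnamed probe sets mixed the diets as well. 1392392_at was 5.88, 5.67, 6.83, 5.63 and 6.79 in P1 to P5, and 5.92, 5.88, 7.27, 5.79 and 6.78 in C1 to C5. 1385031_at was 6.60, 7.47, 7.81, 6.77 and 7.46 in P1 to P5, and 7.83, 6.73, 6.74, 6.81 and 7.86 in C1 to C5. 1394683_at was 5.52, 5.56, 6.65, 6.18 and 5.54 in P1 to P5, and 5.54, 6.44, 6.28, 6.27 and 6.55 in C1 to C5. In the last, 4 of the 5 C-group rats but also P3 and P4 were on the upper level.

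Further variable probe sets repeated the levels for Ogn and Pnma8b and showed the opposite direction for Lysmd4. The 10 named genes had 8 further probe sets, belonging to Lysmd4, Ogn, Pnma8b and Ptprj. Of these 8, 3 were constant and 5 varied, and of the 5, 4 separated the same rats in the same direction and 1, that of Lysmd4, in the opposite one. The 4 belong to Ogn and Pnma8b only, and probe sets of the same gene are not independent. Of the other variable probe sets, 30.7% separated the rats of Pnma8b and 0.517% those of Lysmd4, in either direction and by any margin. The share for Ogn, 7.99%, is for a set of 4 rats and is not comparable with those for sets of 3. The genes beside the 10 genes gave less. Within 5 protein-coding genes on each side in the RefSeq annotation of assembly GRCr8, 56 genes had a probe set, and 6 of their 92 probe sets varied. Of the 6, only 1 probe set of Map4k4 beside Creg2 and 1 of Ecm2 beside Ogn followed the member, and no 2 of the 10 genes were such neighbours. Apart from Lysmd4 on the list of LysM genes, none of the 10 genes was on any of the 16 lists of cell type markers and gene families examined. Beside the list means given above, those of pineal markers separated the rats of Creg2 and 1394683_at, and those of antigen presentation genes and of xenobiotic and acyl enzymes the rats of Ogn, each with at most 1 gene that did so by itself.

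The levels of no probe set matched the diets. Both levels occurred in both diets in 13 of the 16. The exceptions were Lysmd4 and Glycam1, with upper rats from the C-group alone, and Creg2, with lower rats from the C-group alone. The values of the P-group and the C-group overlapped in all 16. Such overlap was the rule over the array, where only 138 of all 31042 probe sets (0.445%) had none, and 6 of these 138 were variable. The overlap is therefore no particular trait of the 16. The mean was higher in the P-group in 4 of the 16 and lower in 12.

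Lysmd4 had the largest difference between the diets, with 5.93 ± 0.09 (SD, n = 5) in the P-group and 6.66 ± 0.77 (SD, n = 5) in the C-group, or -0.73 log2 units with a standard error of 0.34. The spread within the C-group exceeded the difference. The exact permutation test over all divisions of the rats into 5 and 5 gave p = 0.167, two-sided, where the smallest p that the design allows is 0.00794. Any 3 given rats fall into the same group in a share of 0.167 of these divisions. At 1384166_a_at the difference was 0.19 with a standard error of 0.12, with 8.25 ± 0.10 in the P-group and 8.06 ± 0.26 in the C-group (SD, n = 5 each). Glycam1 followed, with 6.39 ± 0.19 in the P-group and 6.89 ± 0.63 in the C-group (SD, n = 5 each), which is -0.50 with a standard error of 0.29 (exact permutation test, p = 0.159). Creg2 was 7.84 ± 0.10 in the P-group and 7.44 ± 0.94 in the C-group (SD, n = 5 each), which is 0.40 with a standard error of 0.41 (exact permutation test, p = 0.413).

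Ogn differed by -0.35 (standard error 0.24) at 1376749_at and by -0.37, -0.47 and -0.38 at 1383263_at, 1385248_a_at and 1390450_a_at, with standard errors of 0.25, 0.25 and 0.21. These 4 probe sets read the same gene in the same rats and are not independent. Pnma8b, Slc35d3, Tshz2, Retsat and Ptprj differed by -0.24, -0.19, -0.19, -0.18 and -0.12, with standard errors of 0.25, 0.43, 0.35, 0.21 and 0.23, and Rnf6 by 0.15 with a standard error of 0.28. The unnamed probe sets ran from -0.33 (1394683_at, standard error 0.28) to 0.39 (1394620_at, standard error 0.48). Over the 16 probe sets the exact p ranged from 0.159 to 0.968.

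**Figure D5:**
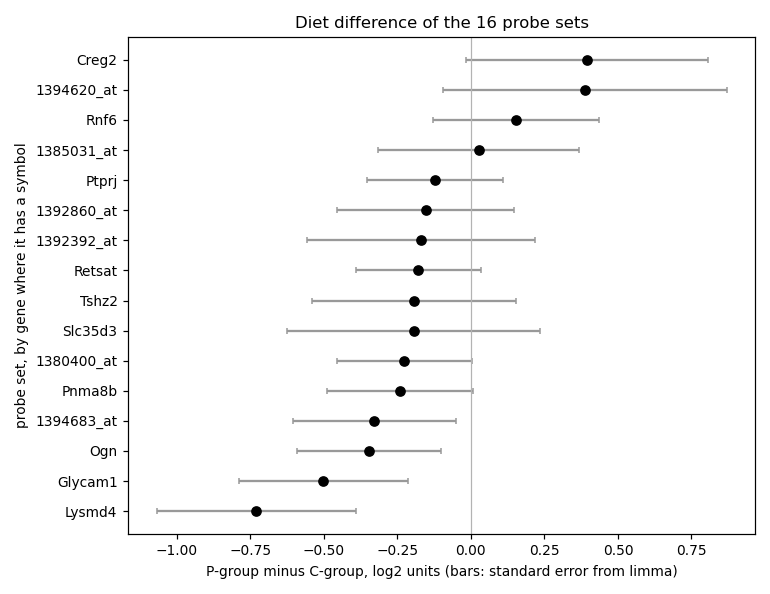
P-group minus C-group difference of the 16 probe sets in log2 units (horizontal axis), with points for the difference of the means of 5 and 5 rats and bars for the standard error from limma. Lysmd4 at -0.73 and Glycam1 at -0.50 lie farthest to the left, and Creg2 at 0.40 farthest to the right.

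None of the 16 passed limma, the linear model fitted over all 31042 probe sets, whose Benjamini-Hochberg adjusted p was 0.927 to 0.993 for them. No probe set of the array passed at an adjusted p under 0.05. None of the 16 had an unadjusted p under 0.05, against 2.95% of all probe sets, and the lowest was that of Lysmd4 (unadjusted p = 0.0612 from limma).

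Rank products, the method used in the study, ranks the differences between single rats over all probe sets and does not set them against the spread of a probe set. At a false discovery rate (FDR) under 0.05 it called 2 of the 16 higher in the P-group, Creg2 and 1394620_at, against 0.383% of all probe sets. It called 10 lower in the P-group, against 2.0% of all, namely Lysmd4, Glycam1, Ogn, Pnma8b, Tshz2, Retsat and the unnamed 1392860_at, 1392392_at, 1394683_at and 1380400_at. Probe sets with a wide range were called more often than all probe sets together, and how far the choice by gap adds to the count was not tested. Of the 883 probe sets with a range at least as wide as the narrowest of the 16 (0.91 log2 units), 9.97% were called higher and 39.3% lower, whereas of the 16 themselves 12.5% were called higher and 62.5% lower. The second Lysmd4 probe set, 1384166_a_at, was called higher (FDR 0.035), so that rank products called this gene in both directions.

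Most of these calls were lost when certain single rats were left out. Lysmd4 and 1394683_at kept their call without any one of the 10 rats, 1392392_at lost it without C3 alone, and Glycam1 and Ogn lost it without C1 and without C2. Pnma8b and Retsat kept it in 6 of the 10 sets of 9 rats, Tshz2 in 4, and Creg2, 1392860_at and 1380400_at in 3. The probe set 1394620_at kept it in 8. Lysmd4 differed by -0.94 to -0.57 over these sets. When rank products was run on the 2904 variable probe sets only, it called 1 of the 16, as lower in the P-group.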

How the data were processed

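Hippocampal mRNA of 10 rats, 5 in each diet group, was measured on 1 array per rat. The deposited values are log2 expression values, which the authors normalized and summarized with qFARMS in R 2.7.2. The factor model shrinks probe sets without shared variation to a near constant, which limits the probe sets that can show 2 levels. The arrays give no read depth, and 5 rats per group limit the precision. Of 31099 probe sets, 57 were manufacturer controls and did not enter, and no column belonged to other samples. Gene names came from the platform annotation, and all 10 member genes were found in RefSeq GRCr8, from which only names and gene order were taken.

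The gap rule, separations and exact tests were run with numpy 2.4.6 and pandas 2.3.3 under Python 3.11.15. A probe set separates a set of rats when all their values lie above, or all below, those of the others. Rank products used the 25 differences between a P-group and a C-group rat and 100 permutations within arrays, and was called at an FDR under 0.05 in each direction. limma 3.58.1 in R 4.3.3 (lmFit, eBayes) gave standard errors and Benjamini-Hochberg adjusted p-values over all 31042 probe sets. A change was claimed only at an adjusted p under 0.05. The rule, rank products and limma were tested on simulated data. All 16 members are named, together with their other probe sets, the members nearest the limits, list members, gene neighbours and the probe sets with the widest separation of the same rats, the last chosen after their values were seen. The members and lists were chosen with earlier results of these data known. The labels do not state littermates or cages, so p-values measure only the spread between these rats. Same-numbered rats of the groups did not deviate together in every pair, and the numbers were not taken as pairs. The alternatives changed each limit of the rule, the normalization, the filters, the variance model, the block and the rats used.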

Additional observations from a re-analysis of the deposited data

Results flagged for a closer look

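In 6 of 42 sets of 5 rats (21 probe sets in 2 diet groups), 1 rat stood apart from the other 4 of its diet by a gap of more than 0.71 of the group's range, which is Dixon's critical value. All 6 belong to the 16 probe sets, which were chosen for wide gaps, so the critical value is used only to list them and is no test, and the usual chance share of such marks does not apply. Slc35d3 was 6.83 in P3, against 5.44 to 5.50 in the other P-group rats (0.951 of the range). The unnamed 1394620_at was 6.27 in P3, against 7.57 to 7.65 (0.936), and 1392860_at was 6.75 in P4, against 5.61 to 5.72 (0.911). Retsat was 9.13 in P2, against 8.39 to 8.54 (0.801), and Ptprj was 8.71 in P5, against 7.98 to 8.16 (0.761). In the C-group, 1394683_at was 5.54 in C1, against 6.27 to 6.55 in the other rats (0.726). In all 6 the rat lay on a level that rats of the other diet shared.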

How the results depend on the processing

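The number of probe sets found depended on the limits of the rule. It was 10 with a smallest gap of 0.6, 28 with a gap of at least 0.4 of the range, 5 with at least 0.6, and 16 to 27 with 1 rat left out (27 without C1), against 16. Lysmd4 was found under every alternative. The number of divisions of the rats was 24 and 5 with shares of 0.4 and 0.6, against 15, and 14 to 21 with 1 rat left out. The most common division held 1 probe set with a gap of 0.6 or a share of 0.6, 4 with a share of 0.4, and 2 to 4 with 1 rat left out. Among the probe sets with a mean above the median, rank products called 3 of the members tested there. Members with a lower mean, among them Lysmd4, Glycam1 and Slc35d3, were not tested there, so this count is not comparable with 12. Among the variable probe sets, rank products called 1 of the 16, against 12. With 1 rat left out it called 5 to 13 (5 without C2, 6 without P5, 7 without C1 or P4). Over all probe sets tested it called 190, 4 and 219 to 868 with 1 rat left out, against 739. Without C1, C2, C4, P4 and P5 it called 244, 219, 362, 423 and 350. An unadjusted limma p under 0.05 was met by 1 of the 16 (Lysmd4) among the variable probe sets and by 0 to 2 with 1 rat left out (Lysmd4 without C1 or without C5, Glycam1 and Ogn without C3), and over all probe sets tested by 50 with centred arrays, 1787 with quantile normalization, 439 above the median, 26 among the variable ones and 616 to 1792 with 1 rat left out (1792 without C3, 1505 without P1), against 915. Groups without overlap numbered 7 and 48 over all probe sets with these normalizations, against 138, and 201 to 680 with 1 rat left out (680 without C3, 530 without P1, and over 1.5 times the count without each rat except P2), and 0 of the 16 throughout. With the replicate block, rank products called 15 of the 16 and 1245 probe sets in all, and limma 0 of the 16 and 1728 in all at an unadjusted p under 0.05. The numbers are not taken to pair the rats, since the correlations of same-numbered rats ran from -0.39 to 0.48. Of 208 recomputed differences, 199 kept their direction. The 9 others came from leaving out 1 rat, with ranges of -0.47 to 0.036 for Slc35d3, -0.34 to 0.063 for 1392392_at, -0.12 to 0.19 for 1385031_at and -0.25 to 0.011 for Ptprj. The 15 probe sets that separated C2, C3 and C4, and the opposite direction of 1384166_a_at, were recomputed with centred and with quantile-normalized arrays, settings chosen after the values were seen, and stayed within 1.5 times and in the same direction. Apart from the smaller number of genes or rats tested, the cause of these changes was not tested.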
